A study of Xenopus laevis with 16 samples.

Results

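The genes described here are the chromatin modifiers and remodelers on a Xenopus laevis array: symbols that begin with hdac, kdm, kmt, setd, ezh, eed, suz12, dnmt, tet, smarc, chd and a digit, arid, brd, baz, cbx, mbd, prmt, kat or sirt. Of 7531 gene symbols on the array, 65 met this rule, and they were measured by 87 of 15491 probe sets. Each gene was represented by its brightest probe set, that with the highest mean over 16 arrays, and no measured difference between groups entered the choice. The rule's letters also caught 2 symbols of katanin, katna1.S and katnbl1.L, an enzyme that severs microtubules and has no known role in chromatin. They are counted as members and named as such. A symbol ending in .L or .S belongs to the long or short subgenome of this allotetraploid frog, whose paired gene copies are called homeologs, and 9 genes were measured as both copies, so that the 65 symbols stand for 56 base names.

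Chromatin modifiers write, erase or read chemical marks on histones and DNA. Acetyltransferases and lysine methyltransferases write marks, deacetylases and demethylases remove them, and proteins with bromodomains or chromodomains bind them. ATP-dependent remodelers of the SWI/SNF, ISWI and CHD families slide, evict or exchange nucleosomes. In early frog embryos many of these factors are stored as maternal RNA and protein, and the Polycomb and acetylation machinery is known for its part in keeping or opening developmental genes as ectoderm acquires its fate. The roles given below are known mainly from mammals and yeast.

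Animal caps, the ectoderm cut from blastulae at stage 8 to 9, were cultured as explants, and total RNA of each pool of caps was hybridised to its own single-colour array. The 16 arrays formed 4 groups with 4 each: foxD5 caps in Noggin, uninjected caps in Noggin, foxD5 caps without Noggin and uninjected caps without Noggin. The foxD5 caps came from embryos whose 2 blastomeres had each been injected with 100 pg of mRNA for FoxD5, a forkhead protein that acts as a transcription factor in newly formed neural ectoderm. Noggin, a secreted antagonist of BMP ligands, was given at 200 ng/ml. Every uninjected sample is labelled as siblings of a numbered foxD5 sample, which gives 4 sibling pairs in Noggin and 4 other pairs without it. No sample received another mRNA, so injection as such and foxD5 cannot be told apart. The labels do not link the pairs across cultures, so clutch and Noggin cannot be told apart either. Nor do they say that the samples are independent clutches, and p-values then measure only the spread between these samples. Labelled stages at collection ran from 11.5 to 13.0 for foxD5 caps without Noggin and from 11.5 to 12.5 in both Noggin groups, where the foxD5 caps had the later range in 3 of 4 pairs. No stage is used here for uninjected caps without Noggin. Samples held 45 to 171 caps, the fewest in uninjected sample 1 without Noggin.

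The deposited value is a linear signal per probe set with a common scale. The median signal of an array lay between 39.0 and 64.7, highest in sibling pair 2 without Noggin. The probe set of the injected gene, foxd4l1.1.S, was higher in 5 of 8 foxD5 samples than in their siblings, by 0.44 ± 0.29 on the log2 scale (SE, adjusted p = 0.579). The probe set of its relative foxd4l1.2.L, at most 16.5 on any array, was higher in 1 of 8, with a change of -0.19 ± 0.12 (adjusted p = 0.575). These values do not check the injection. The labels name cochlea as the source while the descriptions state animal caps. Of 9 endoderm marker genes 7 had a mean signal under 16, as had 13 of 32 epidermal ones. The summed epidermal signal ranged from 7843 to 14448 in foxD5 caps in Noggin, 7979 to 28770 in uninjected caps in Noggin, 8475 to 11089 in foxD5 caps without Noggin and 9366 to 24959 in uninjected caps without Noggin. In pooled caps, fewer cells of a type and less RNA per cell cannot be told apart.

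No chromatin gene passed the test for foxD5 in either culture, where 0.316% of all probe sets passed in Noggin and 0.239% without it. For Noggin over all 16 arrays, a comparison added after the data were seen, 1 gene passed, as did 0.613% of all probe sets: chd7.L, a CHD remodeler, was 1.63-fold higher in Noggin. That call was lost when any one sibling pair was left out (adjusted p between 0.0546 and 0.163). A bromodomain gene, brd3.S, had a difference of like size that missed the threshold. By the brightest probe set of each, 60 of the 65 genes had a mean signal of at least 16 over the arrays. The share below 16 was 7.7%, against 28.5% of all probe sets, and taking the brightest probe set favours higher signals. Shares given for all probe sets include these dim ones. The brightest of the 65 genes were the arginine methyltransferase prmt1.L, between 4754 and 6340 on the 16 arrays, its homeolog prmt1.S (2348 to 3822), the SWI/SNF subunit smarcd1.L (2466 to 3962) and cbx3.L (2372 to 3436), an HP1 protein that binds methylated histone H3. Signals of different probe sets have no common scale, so these values do not rank the genes.

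Effects were fitted with limma on the quantile-normalised log2(signal + 16) scale over all 15491 probe sets, with p-values adjusted over all of them by Benjamini and Hochberg and a threshold of 0.05. A fold change is on that scale and understates the change of dim genes. For foxD5 the sibling pair was a fixed block. In Noggin 0 of 65 genes passed, with 4 at an unadjusted p under 0.05, against 0.316% of all probe sets that passed and 7.37% under the unadjusted limit. Without Noggin 0 passed, with 6 at an unadjusted p under 0.05, against 0.239% and 10.2% of all. Averaged over the 8 pairs, 0 passed and 4 were under the unadjusted limit (3 of 63 without the katanin symbols), against 1.37% and 11.6% of all. The median change of the 65 genes was -0.01 in Noggin, -0.06 without Noggin and -0.02 over both cultures, beside -0.01, 0.00 and -0.01 for all probe sets. The shares at the unadjusted limit were 6.15%, 9.23% and 6.15%, beside 7.37%, 10.2% and 11.6% of all probe sets. Whether these shares differ was not tested. The 95% interval lay within a 2-fold change for 64 of 65 genes in Noggin, 65 of 65 without Noggin and 65 of 65 over both, the exception being kat7.L in Noggin. The difference of the foxD5 effects between cultures passed for 0 genes, as for 0% of all probe sets, with 3 under the unadjusted limit against 4.94% of all. The change had the same sign in both cultures for 33 of 65 genes (50.8%), against 56.4% of all probe sets. It had the same direction in all 4 pairs for 9 genes in Noggin (4 higher and 5 lower, background 20.4%) and for 10 without Noggin (3 higher and 7 lower, background 15.6%). Among those higher in Noggin is baz2b.S, whose pair 1 differed by 0.00 after rounding. Among those lower without Noggin is cbx2.L, whose pair 2 differed by 0.00. Over both cultures 1 gene, the Polycomb subunit suz12, was lower in all 8 pairs (background 3.09%).

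**Figure D1:**
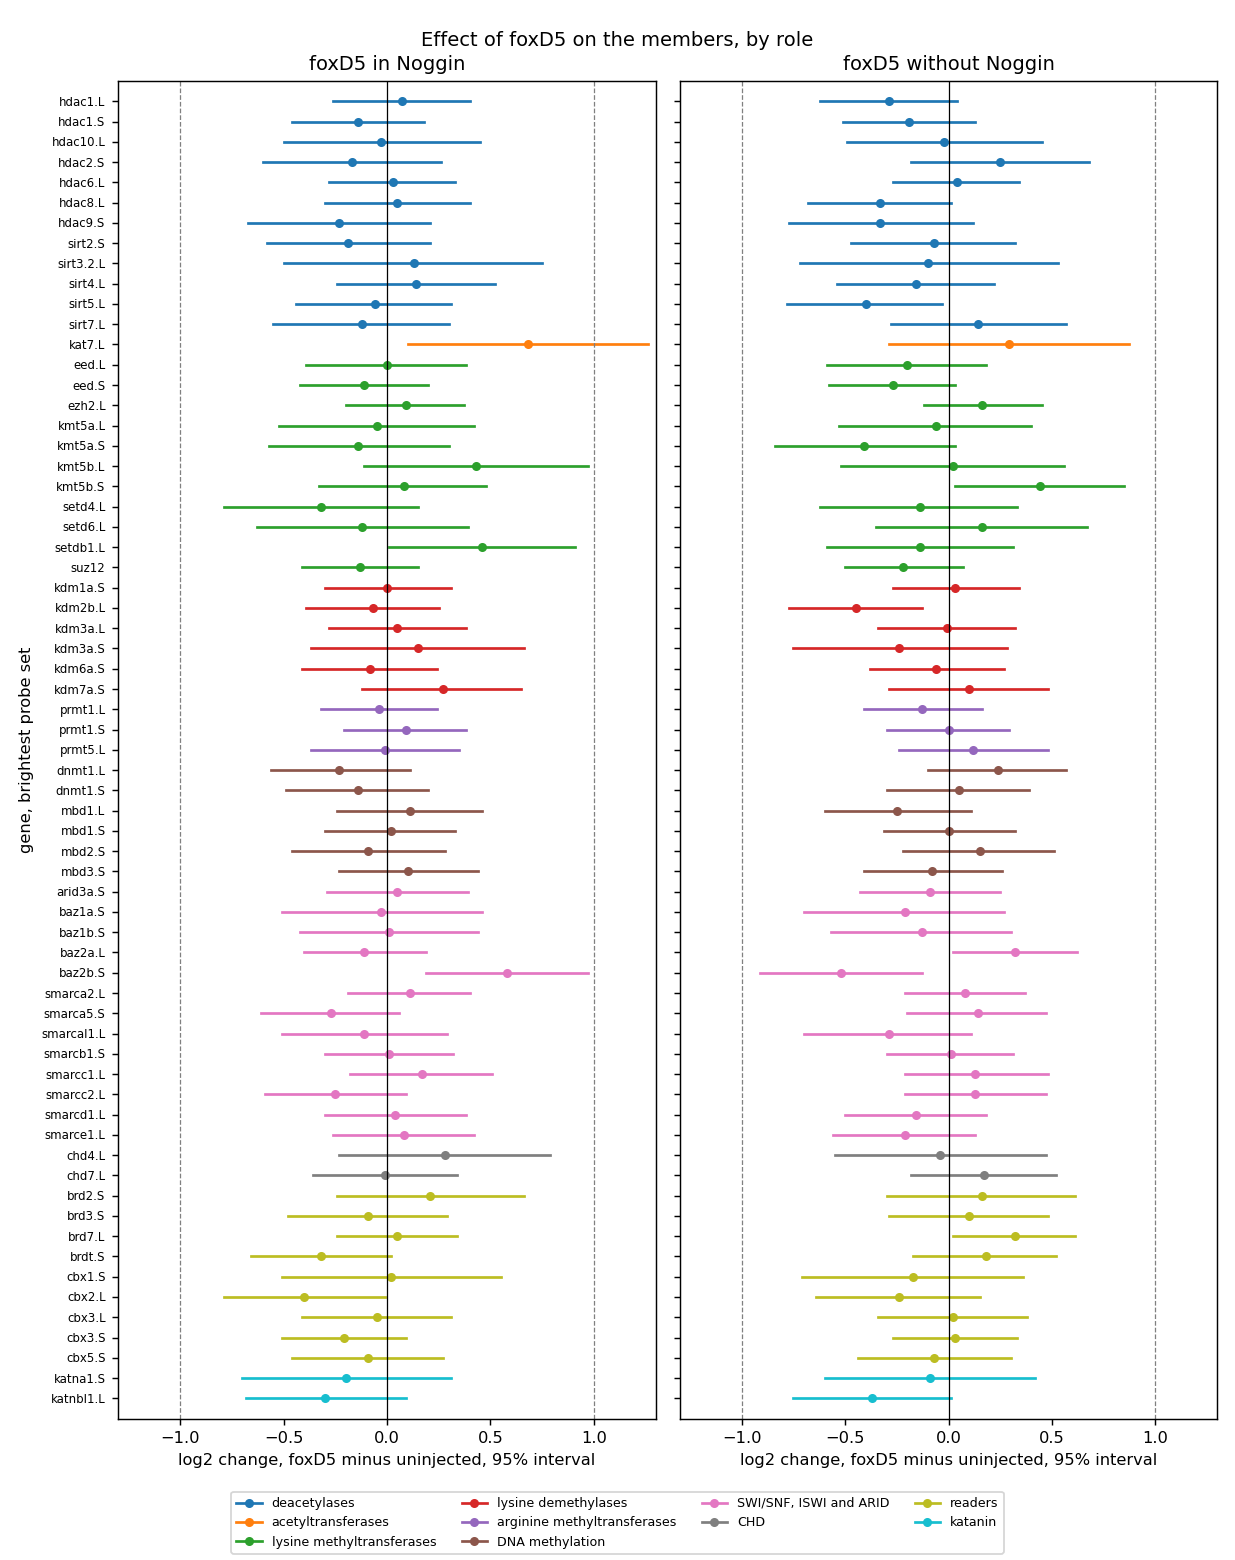
Effect of foxD5 on each of the 65 genes in Noggin (left) and without Noggin (right), as the log2 change of foxD5 over uninjected siblings on the horizontal axis; points are estimates, bars are 95% intervals, colours are role classes, and dashed lines mark a 2-fold change. The estimates run from -0.40 to 0.68 in Noggin and from -0.52 to 0.44 without Noggin, and only the interval of kat7.L in Noggin crosses a dashed line.

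Because no pairs join the cultures, Noggin effects were fitted on group means with the sibling pair as a random block. In foxD5 caps 0 of 65 genes passed, with 7 at an unadjusted p under 0.05, against 0.129% and 11.8% of all probe sets. In uninjected caps 0 passed, with 5 under the unadjusted limit, against 0.00646% and 8.23%. The mean of both Noggin effects passed for 1 of 65 genes and for 0.613% of all probe sets. Under the unadjusted limit it had 6 genes (9.23%), against 11.9% of all. The median change of the genes was 0.01, beside -0.01 for all probe sets, with 35 genes above 0 and 30 below. Centring the arrays on their medians in place of quantile normalisation gave 41 above and 24 below. The median was then 0.10, beside 0.03 for all probe sets. In uninjected caps alone the split was 31 above and 34 below, and after median centring 41 and 24. There centring gave a median of 0.09, beside 0.04 for all probe sets. The same sign of the Noggin effect in foxD5 and in uninjected caps was found for 43 of 65 genes (66.2%) and for 67.6% of all probe sets. These caps share no array, but within each culture they are siblings, so the foxD5-cap and uninjected-cap effects are not independent.

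**Figure D2:**
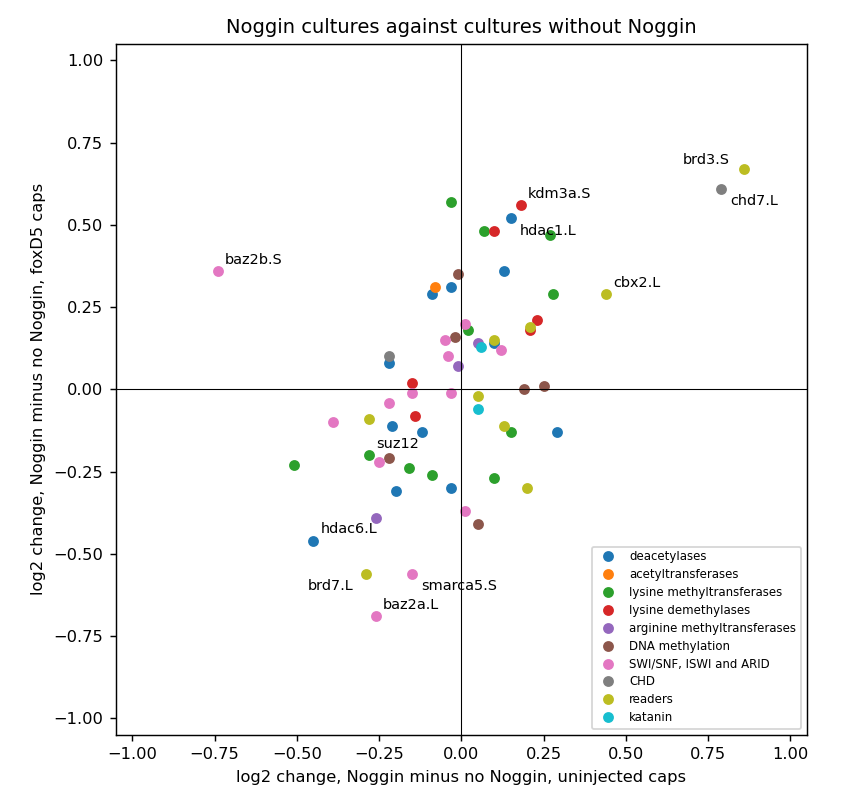
Each point is 1 of the 65 genes, coloured by role class; the axes give its log2 change in Noggin over no Noggin in foxD5 caps (vertical) and in uninjected caps (horizontal). At the upper right chd7.L (0.61 in foxD5 caps and 0.79 in uninjected caps) and brd3.S (0.67 in foxD5 caps and 0.86 in uninjected caps) lie apart from the rest. The dim gene baz2b.S lies at the upper left (0.36 in foxD5 caps and -0.74 in uninjected caps).

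Among CHD remodelers, chd7.L encodes an ATPase needed for neural crest formation in frogs and mutated in human CHARGE syndrome. Its signal was 1438, 1256, 1210 and 995 in foxD5 caps in Noggin and 1108, 1515, 1118 and 1182 in uninjected caps in Noggin. Without Noggin it was 745, 551, 857 and 988 in foxD5 caps and 683, 622, 631 and 776 in uninjected caps. All 8 arrays in Noggin were above all 8 without it. The mean was 1228 ± 173 in Noggin and 732 ± 142 without Noggin (SD, n = 8 each), and the log2 change was 0.70 ± 0.15 (SE, adjusted p = 0.0426). Taken separately the change was 0.61 ± 0.18 in foxD5 caps (adjusted p = 0.161) and 0.79 ± 0.18 in uninjected caps (adjusted p = 0.180). With any of the 8 pairs left out the change stayed between 0.65 and 0.77. Besides these fits, the call was lost on the values as deposited (0.74, adjusted p = 0.0836), after median centring (0.85, adjusted p = 0.0945) and with a pseudocount of 1 (0.71, adjusted p = 0.106). Both other probe sets of chd7.L were higher in Noggin by less, at 0.34 ± 0.14 (adjusted p = 0.325) and 0.18 ± 0.15 (adjusted p = 0.715). With foxD5 the brightest probe set had a change of -0.01 ± 0.16 in Noggin and 0.17 ± 0.16 without Noggin. The other CHD gene, chd4.L, the remodeler of the NuRD complex, had -0.06 for Noggin and 0.12 for foxD5 over both cultures, neither past the test.

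None of 71 marker genes of cell types and stages, ectoderm included, passed for the mean Noggin effect. For foxD5 over both cultures, 4 of 32 epidermal genes and 1 of 10 neural genes were called lower. Called higher were 1 of 13 mesodermal and 1 of 7 maternal or blastula genes. Of all probe sets 1.37% were called for foxD5 over both cultures. Mean signal was under 16 for 7 of 9 endodermal, 13 of 32 epidermal, 7 of 13 mesodermal, 2 of 10 neural and 1 of 7 maternal or blastula genes. Changes of genes that dim are compressed on this scale. Summed neural signal ranged from 3958 to 5736 in foxD5 caps in Noggin and 2497 to 6903 in uninjected caps in Noggin, against 4741 to 5241 in foxD5 caps and 3037 to 5438 in uninjected caps without Noggin. The neural ranges overlap between cultures. Their part in the chd7.L result was not tested.

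The readers include bromodomain proteins, which bind acetylated histones, and chromodomain proteins of the HP1 and Polycomb families. The BET protein gene brd3.S had signals of 1482, 1479, 2092 and 1903 in foxD5 caps in Noggin and 1546, 1619, 1973 and 2337 in uninjected caps in Noggin. Without Noggin they were 1096, 759, 1381 and 1034 in foxD5 caps and 683, 1004, 1302 and 980 in uninjected caps. Again no array in Noggin was as low as the highest without it. The log2 change was 0.76 ± 0.19, and the adjusted p of 0.0735 missed the threshold. It passed with no block for the pair (adjusted p = 0.0162), with the replicate number as a block over the cultures (0.00713) and with a pseudocount of 64 (0.0315). The first of these ignores that siblings are related, and the second joins cultures that the labels do not link. As deposited, after median centring, with a pseudocount of 1 and without any one pair, brd3.S did not pass. Over the whole array 0.465% of probe sets had all 8 Noggin arrays above all 8 others and 0.342% had them all below, against 2 and 0 of the 65 genes. These 2 were chd7.L and brd3.S.

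The gene of brd7, a bromodomain subunit of the PBAF form of SWI/SNF, leaned the other way. The signal of brd7.L was 381, 393, 338 and 476 in foxD5 caps in Noggin and 419, 325, 340 and 436 in uninjected caps in Noggin, against 553, 564, 596 and 596 in foxD5 caps and 461, 454, 451 and 464 in uninjected caps without Noggin. The change with Noggin was -0.56 ± 0.16 in foxD5 caps (adjusted p = 0.151), -0.29 in uninjected caps and -0.42 ± 0.13 over both (adjusted p = 0.167). With foxD5 the arrays overlapped in Noggin, at a change of 0.05. Without Noggin the 4 foxD5 arrays lay above the 4 uninjected ones, by 0.32 ± 0.13 (adjusted p = 0.447). The share of all probe sets with such a separation is not given here, and 10.2% were under the unadjusted limit in that comparison. The Polycomb chromodomain gene cbx2.L was dim, from 4.10 to 30.6 on all arrays, with -0.32 ± 0.13 for foxD5 (7 of 8 pairs lower, adjusted p = 0.339) and 0.37 ± 0.19 for Noggin (adjusted p = 0.464). In Noggin brdt.S, a BET gene known for its role in the mammalian testis, was lower with foxD5 in 4 of 4 pairs, by -0.32 ± 0.16 (adjusted p = 0.682). For cbx3.L, cbx3.S and cbx5.S, which encode HP1 proteins, the change with foxD5 over both cultures was -0.01, -0.09 and -0.08, none past the test.

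**Figure D3:**
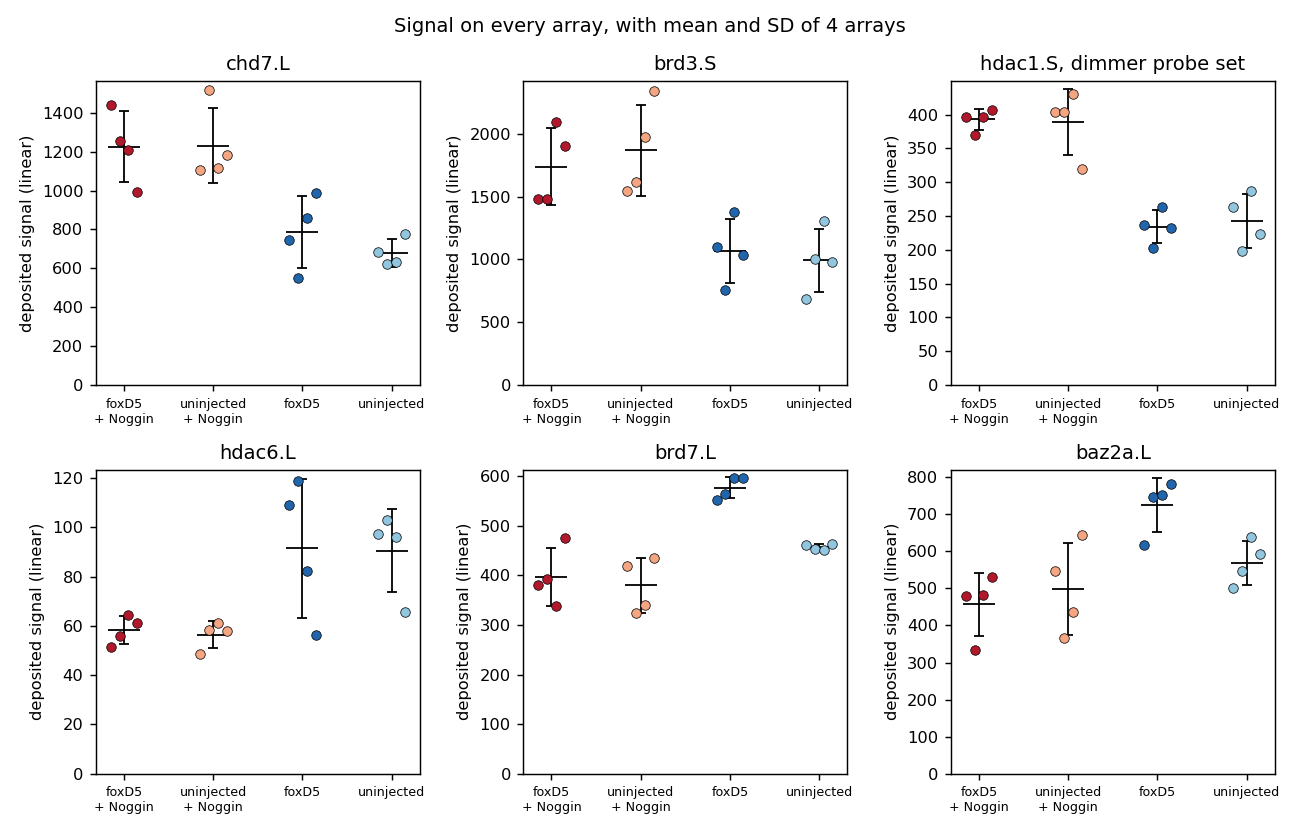
Deposited linear signal on every array for 6 probe sets, with groups along the horizontal axis (4 arrays each), the mean as a long bar and the SD as whiskers. In Noggin chd7.L, brd3.S and the dimmer probe set of hdac1.S are above every array without Noggin, while hdac6.L, brd7.L and baz2a.L have lower means in both Noggin groups, with arrays that overlap.

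Histone deacetylases remove acetyl groups, and the sirtuins among them depend on NAD and include mitochondrial members. None of the 12 deacetylase genes passed for foxD5 or Noggin by its brightest probe set. Class I enzyme hdac1.S, a core of the NuRD and Sin3 complexes, gave different answers by its 2 probe sets. Its dimmer one read 397, 370, 397 and 407 in foxD5 caps in Noggin and 404, 404, 430 and 319 in uninjected caps in Noggin, against 237, 203, 263 and 233 in foxD5 caps and 263, 198, 287 and 224 in uninjected caps without Noggin. All 8 Noggin arrays were higher, as for 0.465% of all probe sets. The mean Noggin effect, the comparison added after the data were seen, was 0.68 ± 0.14 and passed (adjusted p = 0.0303). Taken separately, the change was 0.71 ± 0.16 in foxD5 caps (adjusted p = 0.0771) and 0.66 ± 0.16 in uninjected caps (adjusted p = 0.227). Fits with a pair left out are not given for this probe set. The brighter probe set of hdac1.S gave 0.12 ± 0.15, with arrays from 343 to 625 in Noggin and 385 to 566 without. The homeolog hdac1.L changed by 0.52 ± 0.23 in foxD5 caps (adjusted p = 0.395) and by 0.15 in uninjected caps. Of the 2 probe sets of hdac1.S the dimmer passed, and the brighter, which represents the gene here, did not (adjusted p = 0.839).

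Cytoplasmic tubulin deacetylase hdac6.L had 51.6, 56.0, 64.4 and 61.3 in foxD5 caps in Noggin and 48.4, 58.4, 61.0 and 58.1 in uninjected caps in Noggin. It had 109, 119, 82.1 and 56.3 in foxD5 caps and 97.2, 103, 96.0 and 65.7 in uninjected caps without Noggin. Only foxD5 sample 4 without Noggin fell inside the Noggin range, and the change was -0.45 ± 0.14 (adjusted p = 0.160), nearly equal in foxD5 caps (-0.46) and uninjected caps (-0.45). Mitochondrial sirt5.L changed with foxD5 by -0.06 in Noggin. Without Noggin its signal was 73.5, 59.9, 62.7 and 72.0 in foxD5 caps against 71.2, 126, 91.1 and 91.8 in uninjected caps, a change of -0.40 ± 0.17 (adjusted p = 0.445), widest in pair 2. The other deacetylases, hdac2.S, hdac8.L, hdac9.S, hdac10.L, sirt2.S, sirt3.2.L, sirt4.L and sirt7.L, ranged from -0.28 (hdac9.S) to 0.04 (hdac2.S) with foxD5 over both cultures. Of the 12 deacetylases 7 had a value below 0 with foxD5 in Noggin and 9 without Noggin, with class medians of -0.04 and -0.13.

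The naming rule caught a single acetyltransferase, kat7.L, the catalytic subunit of the HBO1 complex that acetylates histones H3 and H4. In Noggin its signal was 289, 508, 86.2 and 107 in foxD5 caps against 112, 278, 90.0 and 54.0 in their siblings. Without Noggin it was 76.8, 143, 164 and 298 in foxD5 caps against 145, 85.4, 115 and 195 in their siblings. It was thus higher with foxD5 in 6 of 8 pairs, by 0.68 ± 0.27 in Noggin (adjusted p = 0.562), 0.29 without Noggin and 0.48 ± 0.19 over both (adjusted p = 0.335). Pair 1 without Noggin, whose uninjected sample held 45 caps and the highest epidermal signal of its culture, ran the opposite way. The foxD5 sample of that pair is unnumbered and was taken as number 1. The correlation of its siblings after removing group means was -0.115, against 0.203 to 0.670 for the other pairs. Whether they are siblings was not tested. Without that pair the fit over both cultures called 2 of the 65 genes, kat7.L (0.67 ± 0.14, adjusted p = 0.0395) and katnbl1.L (-0.44 ± 0.10, adjusted p = 0.046), while 2.54% of all probe sets passed. The second, dim probe set of kat7.L had the opposite sign in that comparison with all pairs, -0.25. That of katnbl1.L had -0.01 with all pairs.

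Lysine methyltransferases and the Polycomb subunits listed with them numbered 11. The Polycomb repressive complex, which methylates histone H3 at lysine 27, was represented by its catalytic subunit ezh2.L and by eed.L, eed.S and suz12. Signals were high for ezh2.L, 661 to 751 in foxD5 caps in Noggin, 575 to 757 in uninjected caps in Noggin, 757 to 873 in foxD5 caps and 626 to 848 in uninjected caps without Noggin. The signals of suz12 were 868 to 1138, 1066 to 1190, 1054 to 1269 and 1233 to 1391 in the same groups in that order. With foxD5 over both cultures the changes were 0.13 for ezh2.L, -0.17 for suz12, -0.10 for eed.L and -0.19 ± 0.10 for eed.S, which was lower in 7 of 8 pairs; with Noggin they were -0.20, -0.24, 0.37 and 0.10. None passed, and the signs differed among the subunits in both comparisons. The H4 lysine 20 methyltransferase gene kmt5b.S changed with foxD5 by 0.08 in Noggin. Without Noggin it had 131, 164, 204 and 114 in foxD5 caps against 90.0, 91.0, 134 and 148 in uninjected caps, a change of 0.44 ± 0.19 (3 of 4 pairs higher, adjusted p = 0.446). Its homeolog kmt5b.L changed by 0.43 ± 0.25 in Noggin (4 of 4 pairs higher, adjusted p = 0.732) and by 0.02 without it. The H3 lysine 9 methyltransferase gene setdb1.L had 0.46 ± 0.21 with foxD5 in Noggin (3 of 4 pairs higher, adjusted p = 0.667) and -0.14 without it. The 3 other probe sets of setdb1.L did not pass either.

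Of 6 demethylase genes, kdm2b.L, which encodes an H3 lysine 36 demethylase that also recruits a Polycomb complex to CpG islands, had the smallest p for foxD5 without Noggin. In Noggin it read 722, 952, 551 and 555 in foxD5 caps against 829, 1258, 537 and 478 in their siblings, a change of -0.07. Without Noggin it read 610, 423, 347 and 536 in foxD5 caps against 767, 508, 545 and 825 in their siblings, lower in 4 of 4 pairs by -0.45 ± 0.15 (1.37-fold, adjusted p = 0.293). The difference of the effects was 0.38 ± 0.21 (adjusted p = 0.926). Over both cultures the change was -0.26 ± 0.10 (6 of 8 pairs lower, adjusted p = 0.339). The others, kdm1a.S (LSD1), kdm3a.L, kdm3a.S, kdm6a.S (an H3 lysine 27 demethylase) and kdm7a.S, ran from -0.07 to 0.18 with foxD5. With Noggin kdm3a.S differed by 0.56 ± 0.27 in foxD5 caps (adjusted p = 0.432), and kdm3a.L by -0.08. The 3 arginine methyltransferases prmt1.L, prmt1.S and prmt5.L lay between -0.13 and 0.12 for foxD5 in either culture. With Noggin prmt5.L differed by -0.32 ± 0.20, which did not pass.

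DNA methylation was represented by the maintenance methyltransferase dnmt1 as both homeologs and by the methyl-CpG binding genes mbd1.L, mbd1.S, mbd2.S and mbd3.S, and no tet gene was among the members. With foxD5 the values of dnmt1.L were -0.23 in Noggin and 0.24 without Noggin (3 of 4 pairs higher, adjusted p = 0.648), and the difference of -0.46 ± 0.22 had an adjusted p of 0.926. For dnmt1.S they were -0.14 in Noggin and 0.05 without. The signal of mbd3.S, a NuRD subunit, was 1439 to 1632 in foxD5 caps in Noggin and 1005 to 1730 in uninjected caps in Noggin, against 1095 to 1670 in foxD5 caps and 1165 to 1659 in uninjected caps without Noggin. Its change was 0.07 with Noggin and 0.01 with foxD5. Its 2 dimmer probe sets gave 0.49 ± 0.18 (adjusted p = 0.246) and 0.24 with Noggin.

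The SWI/SNF, ISWI and ARID class held 13 genes. Core SWI/SNF subunits smarcb1.S, smarcc1.L, smarcc2.L, smarcd1.L and smarce1.L and the ATPase smarca2.L changed by between -0.07 and 0.15 with foxD5 over both cultures. None of these passed the test. With Noggin smarce1.L changed by -0.10 in foxD5 caps and by -0.39 ± 0.18 in uninjected caps (adjusted p = 0.592). The ISWI ATPase smarca5.S had 438, 334, 563 and 396 in foxD5 caps in Noggin against 588, 562, 605 and 776 in foxD5 caps without Noggin, a change of -0.56 ± 0.19 (adjusted p = 0.206). In uninjected caps its values were 531, 402, 562 and 623 in Noggin against 557, 595, 532 and 563 without, a change of -0.15. The gene of its partner in the NoRC complex, baz2a.L, followed a like pattern, with 479, 334, 482 and 532 in foxD5 caps in Noggin against 618, 746, 751 and 782 in foxD5 caps without it (-0.69 ± 0.19, adjusted p = 0.128). Its uninjected caps had 548, 365, 436 and 645 in Noggin against 500, 546, 638 and 593 without (-0.26). With foxD5 the value of baz2a.L was -0.11 in Noggin, and without Noggin it was higher in 4 of 4 pairs, by 0.32 ± 0.14 (adjusted p = 0.445). With a pseudocount of 64 in place of 16 the Noggin comparison in foxD5 caps called 2 genes, brd7.L (-0.50, adjusted p = 0.0311) and baz2a.L (-0.64, adjusted p = 0.0404), and 1.25% of all probe sets.

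The gene with the largest difference between the foxD5 effects was baz2b.S, a bromodomain relative of baz2a, and its signals were near the bottom of the scale. In Noggin it read 8.04, 12.2, 17.7 and 18.4 in foxD5 caps against 9.87, 0.812, 2.92 and 4.19 in uninjected caps. Without Noggin it read 12.9, 9.11, 2.70 and 7.74 in foxD5 caps against 24.2, 30.3, 17.8 and 11.1 in uninjected caps. The log2 change was 0.58 ± 0.18 in Noggin (adjusted p = 0.391) and -0.52 ± 0.18 without Noggin, lower in 4 of 4 pairs (adjusted p = 0.323). The difference was 1.10 ± 0.26 (adjusted p = 0.926). With Noggin baz2b.S changed by 0.36 ± 0.20 in foxD5 caps (adjusted p = 0.501) and by -0.74 ± 0.20 in uninjected caps (adjusted p = 0.273).

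Sibling pairs were also compared, by a test unlike those for foxD5 or Noggin, so its count of calls cannot be set against theirs. An F test of pair means within each culture, added after the data were seen, passed for 5 of 65 genes (7.69%), against 10.1% of all probe sets. These were kat7.L (adjusted p = 0.0222), kdm2b.L (0.0347), eed.S (0.0394), mbd1.L (0.0411) and setdb1.L (0.0423). By this F test the second, dim probe set of kat7.L (adjusted p = 0.489) and the 3 others of setdb1.L (0.0637 to 0.162) did not pass. Pair means of kat7.L spanned 4.28-fold in Noggin and 2.34-fold without it. Such a span is the highest over the lowest of 4 pair means in a gene picked by this test. It is a measure unlike a mean effect, which for foxD5 on kat7.L was 1.40-fold. For kdm2b.L the spans were 1.95-fold in Noggin and 1.55-fold without, for mbd1.L 2.05-fold and 1.77-fold, for eed.S 1.81-fold and 1.43-fold, and for setdb1.L 1.68-fold and 2.62-fold. Pair 2 in Noggin was the highest of its culture for kat7.L, kdm2b.L and mbd1.L and the lowest for eed.S. With mbd1.L, for example, foxD5 caps in Noggin read 296, 471, 219 and 193 and their siblings 206, 415, 244 and 205. The same pair had the highest summed epidermal signal of its culture, 14448 in foxD5 caps and 28770 in the siblings, and the lowest neural one, 3958 and 2497. The part of cap composition, labelled stage or clutch in these spans was not tested. Without pair 2 in Noggin the test called 0 of the 65 genes, with 11 at an unadjusted p under 0.05, and 2.18% of all probe sets. Without pair 1 lacking Noggin it called 17 of the genes and 22.4% of all probe sets.

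**Figure D4:**
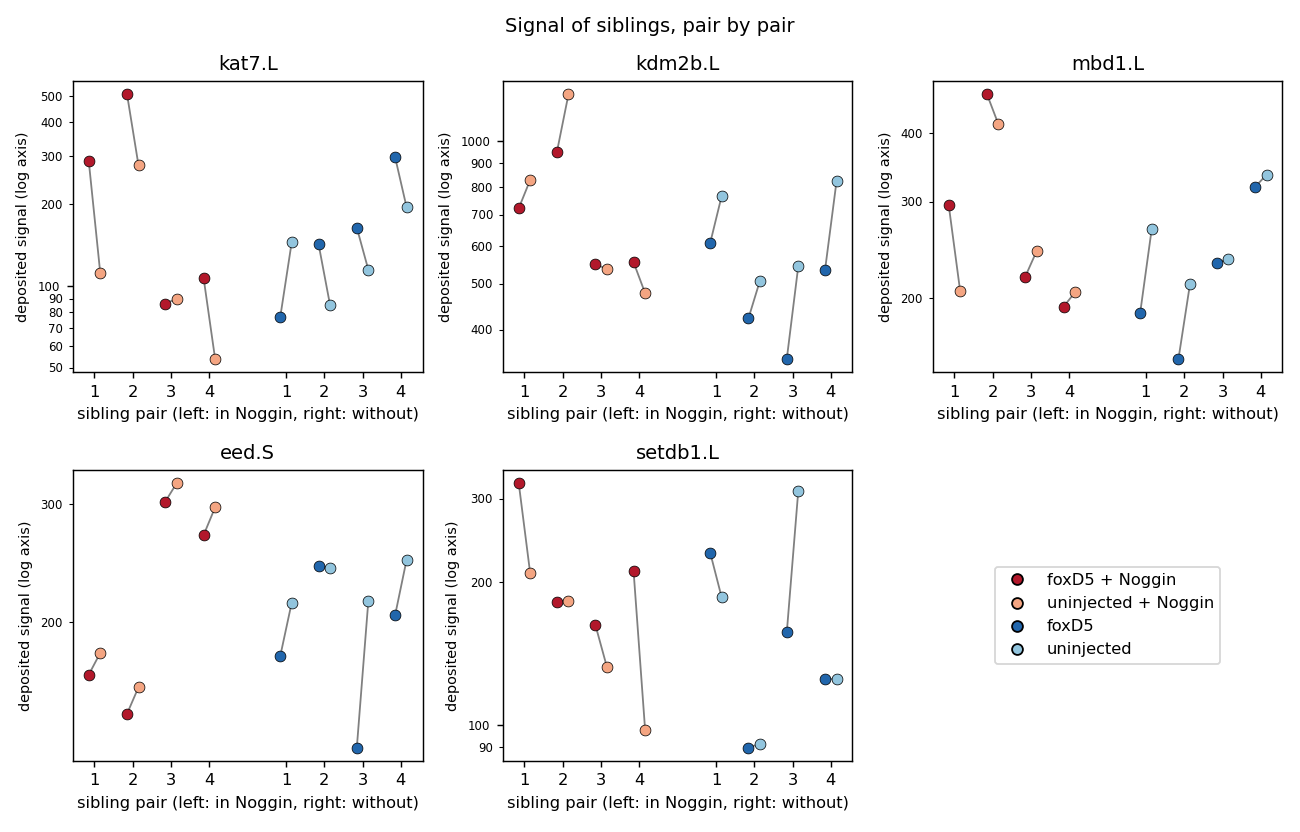
Deposited signal (log axis) of the 5 genes whose sibling pairs differed; each line joins the foxD5 sample (left point) to its uninjected siblings (right point), with pairs in Noggin on the left and pairs without Noggin on the right of each panel. Pair 2 in Noggin is the highest of its culture for kat7.L, kdm2b.L and mbd1.L and the lowest for eed.S.

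The katanin gene katnbl1.L read 51.8, 39.8, 104 and 79.4 in foxD5 caps in Noggin against 88.0, 54.0, 116 and 88.4 in their siblings, lower in 4 of 4 pairs. Without Noggin it read 71.1, 103, 49.1 and 35.1 in foxD5 caps against 56.1, 166, 83.7 and 58.7 in their siblings. Over both cultures it was lower in 7 of 8 pairs, by -0.33 ± 0.12 (adjusted p = 0.300), the smallest of the 65 genes in that comparison. Its second, dimmer probe set did not show this, with -0.01 over both cultures (5 of 8 pairs higher) and 0.04 in Noggin (3 of 4 pairs higher). The other katanin gene, katna1.S, had -0.14.

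Homeologs are separate loci with separate probe sets, and for 9 genes both were measured. Their foxD5 changes had the same sign in 7 of 9 genes in Noggin, 8 without Noggin and 5 over both cultures. Some of these signs rest on changes that round to 0.00, as for eed.L in Noggin and prmt1.S without Noggin. The Noggin changes had the same sign in 4 of 9 genes in foxD5 caps and 6 in uninjected caps. No member of these gene pairs passed by its brightest probe set in those comparisons, so the counts describe estimates that did not pass. A list of 54 other chromatin genes outside the naming rule, among them Polycomb, NuRD, COMPASS and histone chaperone subunits, gave 0 calls for foxD5 or Noggin, with 1 to 7 genes (1.85% to 13.0%) at an unadjusted p under 0.05 per comparison, against 4.94% to 11.9% of all probe sets. The Polycomb gene bmi1.S was higher with foxD5 in 8 of 8 pairs, by 0.36 ± 0.11 (adjusted p = 0.167). It had the smallest p of the 54 genes there, and 3.09% of all probe sets went the same way in all 8 pairs. Sibling pairs differed for 5 of the 54 genes (9.26%, against 10.1% of all probe sets): bmi1.S, hells.L, ing1.S, ruvbl2.S and ss18.L.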

How the data were processed

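Per the deposited table, the authors' values are a linear signal intensity per probe set, with 1 trimmed mean (2% off each end) common to all arrays. The software that made them is not given in the sources used here, and their number of arrays, not a read depth, limits precision. The genes, lists and tests were chosen with earlier results of these data known. Values were taken as log2(signal + 16). Array medians ran from 5.79 to 6.35, wider than a limit of 0.2, and quantile normalisation was applied. The 120 control probe sets among 15611 were dropped. R 4.3.3 and limma 3.58.1 were used, two-sided, with no filter on signal. For foxD5, sibling pair was a fixed block (6 residual degrees of freedom). The labels state the pairing, and 1 unnumbered foxD5 sample per culture was taken as number 1. As a check, the correlation of siblings after removing group means was -0.115 for pair 1 without Noggin and lay between 0.203 and 0.670 for the other 7. For Noggin the pair entered at random, with an estimated correlation of 0.364 and 12 residual degrees of freedom. Of the 65 symbols, 64 were found in RefSeq by Entrez identifier and 0 had been renamed. A probe set shared by cbx3.L and cbx3.S was left out. The fits were tested on simulated data.

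Named genes were those that passed, the 4 higher and 4 lower genes with the smallest p in each comparison, those over 0.5 in size and the same way in all pairs, the smallest p of each role class, and genes with a dimmer probe set that passed. Others are named for their place in a complex, their level or their homeolog. The mean Noggin effect and the spread among pairs were added after the data were seen. Alternatives were other blocks, scalings, pseudocounts of 1 and 64, only brighter probe sets, every probe set, no katanin symbols, and leaving out each pair. Marker lists covered epidermis, mesoderm, endoderm, neural ectoderm and maternal or blastula genes. For foxD5 over both cultures they held 4 epidermal genes and 1 neural gene called lower. Called higher were 1 mesodermal and 1 maternal gene, and 0 endodermal genes were called. Of all probe sets 1.37% were called there. For the mean Noggin effect the lists held 0 called genes, against 0.613% of all probe sets.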

Additional observations from a re-analysis of the deposited data

Results flagged for a closer look

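Among 27 named genes in 4 groups, 108 groups of 4 arrays were examined for a sample far from the other 3, and 4 were found. Chance gives about 1 in 20. Uninjected sample 1 without Noggin had the lowest brdt.S signal of its group, 101, against 169 to 183 in the others, and it is the sample with 45 caps. In foxD5 caps without Noggin, sample 3 was lowest for dnmt1.L at 89.5, with 142 to 145 in the others, and sample 2 was highest for eed.L at 120, with 55.2 to 60.5 in the others. In foxD5 caps in Noggin, sample 1 was highest for hdac9.S at 6.71, with 1.13 to 1.39 in the others, all near the bottom of the scale.

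For baz2b.S the foxD5 effects in the cultures ran in opposite directions, with a difference of 1.10 ± 0.26 on the log2 scale and an adjusted p of 0.926. In Noggin 3 pairs were higher with foxD5, by 0.63 to 0.85, and pair 1 differed by 0.00. Without Noggin all 4 pairs were lower with foxD5, by -0.26 to -0.94. Its deposited signals were at most 30.3.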

How the results depend on the processing

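For the 6 comparisons of foxD5 or Noggin chosen first, 92 of 94 alternatives gave 0 genes called. The exceptions were foxD5 over both cultures without pair 1 lacking Noggin, with 2 (leaving out each pair gave 0 to 2), and Noggin in foxD5 caps with a pseudocount of 64, with 2. Leaving out the katanin symbols reused the main fits, which had 0 calls there, so those alternatives could only give 0. For the mean Noggin effect, 1 gene in the main result, the count was 2 with no block for the pair, 4 with the replicate number made a block over the cultures, 0 as deposited, 0 after median centring, 0 with a pseudocount of 1, 3 with 64, 2 over every probe set, and 0 without any one pair. For the spread among pairs, 5 in the main result, it was 13 as deposited, 0 with a pseudocount of 1, 10 with 64, 12 with only the brighter probe sets, and 0 to 17 without any one pair. The sibling pairing is stated by the labels, apart from the foxD5 sample of pair 1 in each culture, unnumbered and taken as number 1. Without that block the foxD5 comparisons called 0 of the 65 genes, as with it, while the count over all probe sets was 3 in place of 49 in Noggin, 1 in place of 37 without Noggin and 67 in place of 213 over both; for the mean Noggin effect it was 410 in place of 95. For Noggin in uninjected caps the median change of the 65 genes turned from -0.01 to 0.09 after median centring. That of all probe sets went from -0.01 to 0.04. As deposited, the median of the mean Noggin effect turned from 0.01 to -0.01 for the genes and from -0.01 to -0.07 for all probe sets. Of 831 alternative values of named genes, 781 kept their side of the threshold, 40 lost a call and 10 gained one. All 40 losses fell on chd7.L for the mean Noggin effect and on the 5 genes of the spread among pairs. A gene not called in the main fit had no call to lose, so the 781 do not measure how stable the calls were. The cause of these shifts was not tested. Genes with a signal near 16 or below, such as baz2b.S, cbx2.L and hdac9.S, have compressed changes on this scale.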
